A study of Mus musculus with 8 samples.

Results

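The GABA-B receptor genes Gabbr1 and Gabbr2 and 7 genes of the KCTD family were followed in the ribosome-bound RNA of mu opioid receptor (MOR) neurons from the paraventricular nucleus of the thalamus (PVT), after chronic morphine or saccharin alone. They are 9 of the 18939 genes in the deposited table of read counts. The members were chosen by name: the receptor subunits Gabbr1 and Gabbr2, the auxiliary subunits Kctd8, Kctd12 and Kctd16, the G protein binding relatives Kctd2, Kctd5 and Kctd17, and Kctd4. Kctd4 was picked because it rose with morphine in these same libraries, so its difference between the groups is given as a description with no test.

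All mice carried Cre at the Oprm1 locus and a Cre-dependent EGFP-L10a ribosomal protein (labelled OPRM1cre X EGFP-L10a), on a C57Bl/6J background, and were 8 to 12 weeks old at the start. Cre follows Oprm1, so any MOR cell inside the gross dissection is tagged, and 2 dissections of mice of 1 sex were pooled per library. For 11 days the morphine mice (replicates 3, 4, 7 and 8) drank morphine, increased stepwise to 0.5 mg/ml, in 0.2% saccharin, and the controls (replicates 1, 2, 5 and 6) drank 0.2% saccharin. Each group has 2 libraries labelled male and 2 labelled female. The labels do not say more about how the pools were formed, so P values measure the spread between these pools.

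Total counts, with 1 transcript per gene, were between 31151106 and 47582947 per library, and 9 of the 9 genes were counted in all 8 libraries, with at least 380 counts each. Oprm1 itself stood at 25.3 ± 6.92 CPM (counts scaled to the size of the library) in the controls and at 16.5 ± 1.95 CPM in the morphine libraries (SD, n = 4; log2 fold change -0.62, edgeR adjusted P = 0.207). The thalamic markers Tcf7l2 and Slc17a6 were present in every library, at 686 to 1359 CPM and at 216 to 349.8 CPM. Of 10 midline thalamus markers, 9 had a log2 fold change below 0 after morphine, with a median of -0.21, and Drd2 had 0.87. Drd2 was at 20.1, 76.7, 55.6 and 22.9 CPM in morphine replicates 3, 4, 7 and 8, against 10.6 to 34.5 CPM in the controls. Of the 10, 0 were called in edgeR or DESeq2, against 0.195% and 2.65% of all genes, and 1 was under 0.05 unadjusted in edgeR, Gbx2 (edgeR adjusted P = 0.227), against 12.1%. Drd3 was low at 0.287 to 0.718 CPM. Control replicate 5 is labelled female, yet 4 Y-linked genes reached 28.7% to 35.8% of the average male level in it. The morphine fold changes of the members are therefore also given without it, as is the sex difference of Kctd4. The ratios, shares, marker sums, interaction terms and other sex differences are given with it included. In 4 morphine libraries against 4 controls, the summed CPM of 12 markers of telencephalic pyramidal neurons lay between 810 and 1124 against 507 to 797, and that of 12 choroid plexus markers between 127 and 394 against 34.1 to 104. Ttr made up most of the choroid plexus sum in the morphine libraries, at 69.9 to 302 CPM, against 0.949 to 44.5 CPM in the controls. Fewer cells of a type and less RNA per cell cannot be told apart in such pools.

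GABA-B receptors are the metabotropic receptors for GABA, the main inhibitory transmitter of the brain. GABBR1 binds GABA, and GABBR2 brings the complex to the cell surface and activates inhibitory Gi/o proteins, the same class that the MOR uses. The released G protein beta-gamma subunits open GIRK potassium channels and inhibit voltage-gated calcium channels. KCTD8, KCTD12 and KCTD16 bind the intracellular tail of GABBR2 and set the kinetics of the response, and KCTD12 makes it desensitize. KCTD2, KCTD5 and KCTD17 are adaptors of Cullin-3 ubiquitin ligases that bind G protein beta-gamma subunits. All KCTD proteins share a domain related to the tetramerization domain of voltage-gated potassium channels.

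To compare levels between genes, CPM were divided by transcript length. On this scale of CPM per kilobase, Gabbr1 came first with a mean of 169 ± 25.9 (SD, n = 8 libraries), followed by Kctd17 with 135 ± 19.7. Kctd2 had 55.0 ± 5.69 and Gabbr2 had 47.4 ± 8.75. Below them came the auxiliary subunits Kctd16, at 24.9 ± 5.34, and Kctd12, at 20.9 ± 2.88. Kctd8, the lowest of these 3 auxiliary subunits, had 7.99 ± 0.92 and Kctd5 had 5.39 ± 0.40. The place of Kctd4 differed between the groups, with 5.31 ± 0.70 in the controls and 10.04 ± 0.69 in the morphine libraries (SD, n = 4), and follows from its choice.

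The ranges over the 8 libraries overlapped between neighbors for Gabbr1 and Kctd17, for Kctd2 and Gabbr2, and for Kctd16 and Kctd12, so these neighbors are not ordered beyond their spread. They did not overlap between Kctd17 and Kctd2, between Gabbr2 and Kctd16, or between Kctd12 and Kctd8. In the controls Kctd4, at 4.45 to 6.00 CPM per kilobase, lay below Kctd8, at 7.31 to 8.95, and overlapped with Kctd5. In the morphine libraries Kctd4, at 9.56 to 11.0, lay above Kctd8, at 6.38 to 9.01, and above Kctd5, at 5.05 to 5.99. Lengths limit this order. Kctd17 was given the longest coding transcript of the annotation, 1632 bases, because its counted transcript was not found there. Kctd16 would fall to 12.2 CPM per kilobase with its longest annotated coding transcript in place of the counted one of 1349 bases, and would then lie below Kctd12, and Kctd2 would fall to 36.6, below Gabbr2. With the mean length of the annotated coding transcripts, Gabbr1 would rise to 337, Kctd17 to 233 and Gabbr2 to 86.5 CPM per kilobase, which puts Gabbr2 above Kctd2 with 54.8.

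**Figure D1:**
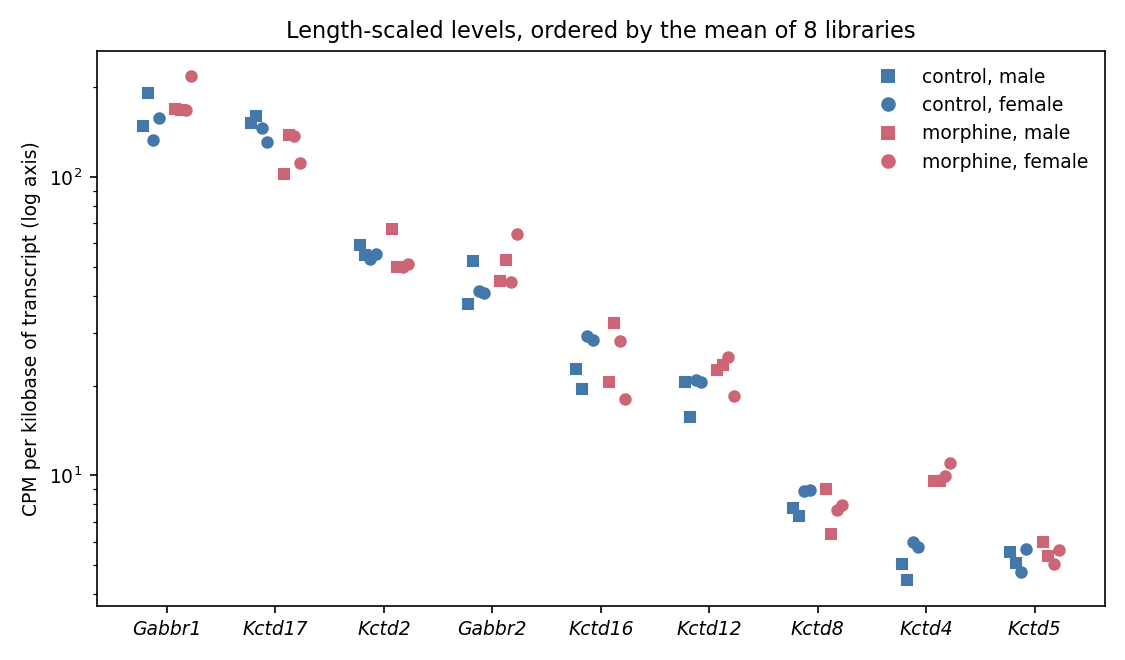
CPM per kilobase of transcript (log axis) of the 9 genes in each of the 8 libraries, ordered by the mean, with control libraries in blue, morphine libraries in red, squares for male and circles for female. Gabbr1 and Kctd17 sit highest, Kctd8, Kctd4 and Kctd5 lowest, and only Kctd4 shows the 2 groups apart.

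The first comparison asks whether receptor and partner transcripts differ after chronic morphine. Of the 8 members not chosen for a difference, 0 passed edgeR's quasi-likelihood test at an adjusted P value under 0.05, and 0 passed in DESeq2, against 0.195% of all genes in edgeR and 2.65% in DESeq2. At an unadjusted P value under 0.05 there was 1 of the 8 in edgeR, Kctd17, against 12.1% of all genes. The morphine and control libraries overlapped in all 8, while they did not overlap in 6.55% of all genes. The log2 fold change was above 0 in 4 members and below 0 in 4, with a median of 0.025, and over all genes the median was 0.0088. Without control replicate 5 the log2 fold changes were 0.11 for Gabbr1, 0.23 for Gabbr2, 0.22 for Kctd12, -0.062 for Kctd8, -0.067 for Kctd2 and 0.0022 for Kctd5, and 0 of the 8 members were called.

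**Figure D2:**
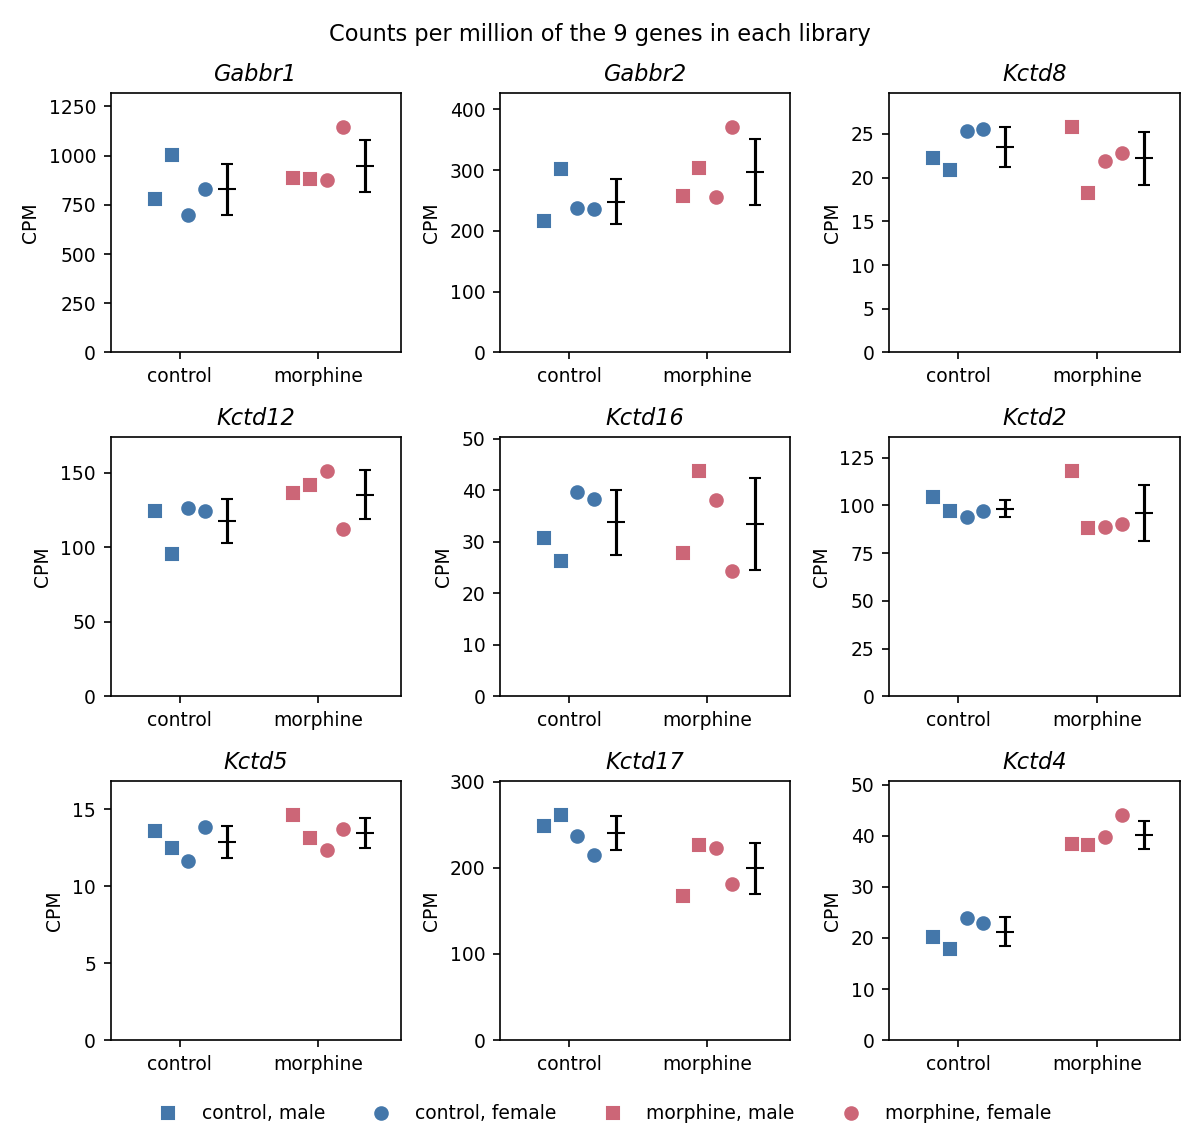
CPM of the 9 genes in each library, control in blue and morphine in red, with squares for male and circles for female libraries and, beside each group, its mean and SD of 4 libraries in black. The groups overlap in 8 genes, and the 4 morphine libraries of Kctd4, at 38.2 to 44.1 CPM, lie above its 4 controls, at 17.8 to 24.0 CPM.

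Gabbr1, the subunit that binds GABA, lies on chromosome 17 of GRCm38 from 37045966 to 37075067. It had 779.8, 1003, 700.4 and 829 CPM in control replicates 1, 2, 5 and 6. It had 887, 881, 877 and 1144 CPM in morphine replicates 3, 4, 7 and 8. Morphine replicate 8 and control replicate 2 were the highest of their groups, and the other 3 morphine libraries were close to each other. The mean was 828 ± 128 CPM in the control group and 947 ± 131 CPM in the morphine group (SD, n = 4), and the log2 fold change was 0.19 with a 95% interval from -0.10 to 0.49 (edgeR adjusted P = 0.613). Without morphine replicate 8 it was 0.091 and without control replicate 2 it was 0.30.

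Gabbr2, the subunit that couples to the G protein, lies on chromosome 4 from 46662305 to 46991873. Its controls had 216, 302, 238 and 235 CPM, and its morphine libraries had 257, 304, 255 and 371 CPM, in the same order of replicates. As in Gabbr1, control replicate 2 and morphine replicate 8 were the highest of their groups. The means were 248 ± 37.2 and 297 ± 54.2 CPM (SD, n = 4), and the log2 fold change was 0.26 with a 95% interval from -0.056 to 0.57 (edgeR adjusted P = 0.515). It was 0.13 without morphine replicate 8.

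The balance of the receptor subunits was alike in the groups within their spread. Per length, the ratio of Gabbr1 to Gabbr2 was 3.67 ± 0.32 in the control libraries and 3.53 ± 0.30 in the morphine libraries (SD, n = 4). It ran from 3.22 in control replicate 5 to 3.95 in control replicate 1, and the morphine libraries, from 3.17 to 3.78, overlapped with this range. Reads of the Gabbr1 isoforms cannot be separated here, because the table holds 1 transcript of the gene.

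Among the auxiliary subunits, Kctd12 (chromosome 14, 102976581 to 102982637), the one that makes the GABA-B response desensitize, had 124, 95.3, 126 and 124 CPM in the controls. It had 136 CPM in morphine replicate 3, 142 in replicate 4, 151 in replicate 7 and 112 in replicate 8. Control replicate 2 and morphine replicate 8, the libraries highest in the receptor genes, were the lowest of their groups in Kctd12. The means were 118 ± 14.9 and 135 ± 16.6 CPM (SD, n = 4), and the log2 fold change was 0.20 with a 95% interval from -0.064 to 0.47 (edgeR adjusted P = 0.552). It was 0.11 without control replicate 2 and 0.13 without morphine replicate 7. A noncoding RNA on the opposite strand, Gm26778, shares 62.8% of the exon bases of Kctd12, and whether the counting used the strand is not given in the sources used here.

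Kctd16 (chromosome 18, 40256962 to 40531630) had 30.8, 26.3, 39.7 and 38.3 CPM in the controls and 27.8, 43.7, 38.1 and 24.3 CPM in the morphine libraries. Here too control replicate 2 and morphine replicate 8 were the lowest of their groups. The mean was 33.8 ± 6.34 CPM in the control and 33.5 ± 9.0 CPM in the morphine group (SD, n = 4), and the log2 fold change was -0.014 with a 95% interval from -0.44 to 0.41 (edgeR adjusted P = 0.987). Leaving out each library in turn gave -0.17 to 0.11, on both sides of 0, and it was 0.059 without control replicate 5. Kctd8 (chromosome 5, 69109285 to 69341679) ranged from 20.9 to 25.6 CPM in the controls and from 18.3 to 25.7 CPM in the morphine libraries. Its log2 fold change was -0.084 with a 95% interval from -0.36 to 0.19 (edgeR adjusted P = 0.823), and it was -0.0016 without morphine replicate 4, -0.14 without control replicate 2 and -0.16 without morphine replicate 3.

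Taken per length, Kctd16 made up 47.3 ± 2.50% of the sum of the 3 auxiliary subunits in the control libraries and 44.6 ± 5.86% in the morphine libraries (SD, n = 4). Kctd12 made up 37.0 ± 2.28% and 40.9 ± 2.37%, and Kctd8 made up 15.7 ± 1.00% and 14.5 ± 3.69%. All of these ranges overlapped between the groups. The shares and the sum rest on the counted transcript of Kctd16, and with its longest coding transcript Kctd12 would hold the largest share, at 20.9 against 12.2 CPM per kilobase over the 8 libraries. The auxiliary sum per Gabbr2 was 0.810 in control replicate 2 and 0.690 in morphine replicate 8, and it was between 1.17 and 1.43 in the other 6 libraries. These 2 libraries also had the most genes with a count above 0, 17441 and 17437 against 16920 to 17185 in the others, and the highest total counts of their groups, though in the controls by little (43311792 against 43233498). They also had the highest mean log2 CPM of 8 astrocyte markers in their groups, with 3.15 for control replicate 2 (other controls 1.34 to 2.31) and 3.16 for morphine replicate 8 (other morphine libraries 2.09 to 2.83). By the summed CPM of these markers, used for the other lists, morphine replicate 8 was the highest of its group with 335, while control replicate 2 with 313 was below control replicate 5 with 322. The part of depth and of astrocytes in this ratio was not tested.

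**Figure D3:**
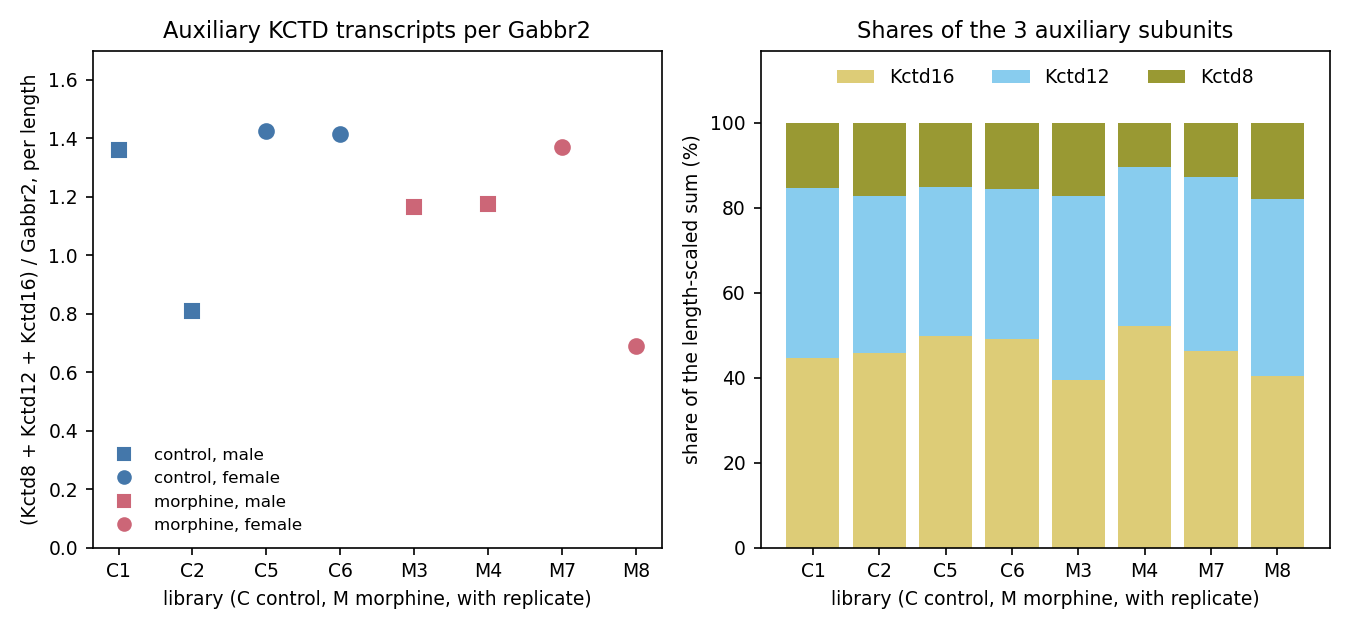
Left, the length-scaled sum of Kctd8, Kctd12 and Kctd16 divided by that of Gabbr2 in each library, and right, the share of each auxiliary subunit in that sum (%), with C for control, M for morphine and the replicate number. C2 (0.810) and M8 (0.690) stand below the other 6 libraries, which lie between 1.17 and 1.43, and Kctd16 and Kctd12 hold most of the sum in every library, with Kctd16 scaled by its counted transcript of 1349 bases.

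Within the groups, the genes most like the receptor subunits were named by Pearson's r of log2 CPM over the 8 libraries after the mean of each condition had been subtracted, among 9372 genes with a mean of at least 10 CPM. These are descriptions, and the points share depth and dissection. For Gabbr2 they were App (r = 0.998), Sepn1 (0.993) and Stim2 (0.988). App encodes the amyloid precursor protein, which binds the extracellular part of the longer GABBR1 isoform, and had 478, 768, 551 and 541 CPM in the controls and 616, 763, 625 and 999 CPM in the morphine libraries. Control replicate 2 and morphine replicate 8 were thus the highest of their groups in App, as in Gabbr1 and Gabbr2. For Gabbr1 the most alike genes were BC017158 (0.981), Susd4 (0.978) and Galntl1 (0.977), and App was not among them. Between Gabbr1 and Gabbr2 the coefficient was 0.836, and Kctd12 had -0.928 with Gabbr1 and -0.896 with Gabbr2.

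Of the relatives that bind G protein beta-gamma subunits, Kctd17 (chromosome 15, 78428564 to 78439303) is known from myoclonus dystonia, in which the human gene is mutated. It had 248, 261, 237 and 214 CPM in the controls and 167, 226, 223 and 181 CPM in the morphine libraries. Morphine replicates 3 and 8 lay below all controls, while replicates 4 and 7 lay above control replicate 6. The means were 240.3 ± 19.9 and 199 ± 29.9 CPM (SD, n = 4), and the log2 fold change was -0.27 with a 95% interval from -0.53 to -0.0094. The unadjusted P value was 0.0435 and the adjusted P value was 0.393 (edgeR). It was below 0 in all 8 fits that left out 1 library, from -0.35 to -0.19, and was not called in any of them, with -0.29 without control replicate 5 (edgeR adjusted P = 0.471).

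Kctd2 (chromosome 11, 115420128 to 115431274) had 93.9 to 104 CPM in the controls. In the morphine group, replicate 3 had 118 CPM and the other 3 libraries had 87.9 to 90.1 CPM, below every control. The log2 fold change was -0.030 with a 95% interval from -0.27 to 0.21 (edgeR adjusted P = 0.934), and leaving out each library in turn gave values from -0.14, without morphine replicate 3, to 0.0096, without morphine replicate 4. Kctd5 (chromosome 17, 24047734 to 24073485), an adaptor that targets beta-gamma subunits for degradation by the proteasome, ranged from 11.6 to 13.8 CPM in the controls and from 12.3 to 14.6 CPM in the morphine libraries, with a log2 fold change of 0.064 and a 95% interval from -0.19 to 0.31 (edgeR adjusted P = 0.855). It was 0.0022 without control replicate 5 and 0.020 without morphine replicate 3. The length-scaled sum of Kctd2, Kctd5 and Kctd17 was 208 ± 12.9 CPM per kilobase in the controls and 182 ± 12.8 in the morphine libraries (SD, n = 4), and the ranges overlapped, since control replicate 6 had 192 and morphine replicate 4 had 194.

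**Figure D4:**
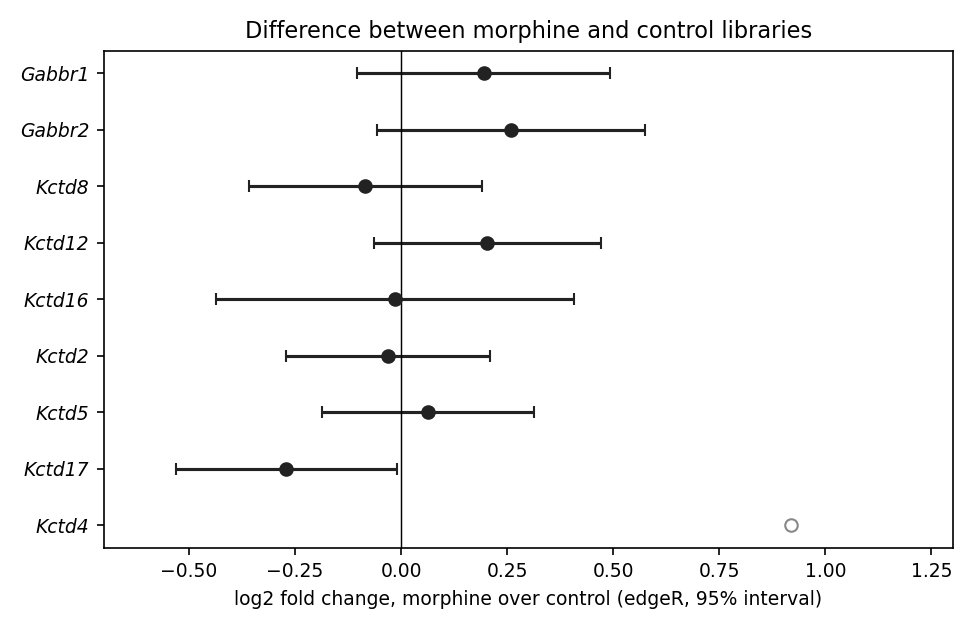
Log2 fold change of morphine over control libraries for the 9 genes, with 95% intervals from edgeR over 4 libraries per group. Kctd4, chosen for its rise, is drawn as an open point with no interval, and among the other 8 only the interval of Kctd17, from -0.53 to -0.0094, leaves out 0, without adjustment for the number of genes.

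Kctd4, whose function is little known, lies on chromosome 14 from 75955009 to 75966206. It had 20.1, 17.8, 24.0 and 22.9 CPM in control replicates 1, 2, 5 and 6. It had 38.4, 38.2, 39.8 and 44.1 CPM in morphine replicates 3, 4, 7 and 8. Each morphine library was above each control, as in 3.34% of all genes, a pattern that the choice of this gene used. The means were 21.2 ± 2.81 and 40.1 ± 2.75 CPM (SD, n = 4), so that the morphine mean was 1.89-fold that of the controls. The log2 fold change was 0.92, ranged from 0.84 to 0.97 with single libraries left out and was 0.97 without control replicate 5.

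Within sexes, Kctd4 went from a mean of 18.9 to 38.3 CPM in males and from 23.5 to 42.0 CPM in females. The gene Gtf2f2 spans Kctd4 on the opposite strand and shares 0 bases with its exons. Gtf2f2 stood at 8.01 to 9.61 CPM in the controls and at 9.45 to 11.1 CPM in the morphine libraries, below Kctd4 in every library.

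Markers of telencephalic pyramidal neurons and choroid plexus were higher in the same libraries as Kctd4. Their log2 fold change was above 0 in 11 of 12 and in 11 of 12 markers, with medians of 1.01 and 2.54. Of the telencephalic markers edgeR called 1 and DESeq2 5, and of the choroid plexus markers edgeR called 0 and DESeq2 8, against 0.195% and 2.65% of all genes. Under 0.05 unadjusted in edgeR were 7 of the 12 telencephalic and 10 of the 12 choroid plexus markers, against 12.1% of all genes. All 10 and 6 of the 7 were higher after morphine, and Cux2, the other telencephalic one, was lower, at 130.4 ± 4.21 CPM in the controls and 104 ± 10.2 CPM after morphine (SD, n = 4, edgeR adjusted P = 0.188). The called one, Bhlhe22, a transcription factor of cortical neurons, had 24.1 ± 4.73 CPM in the controls and 52.6 ± 7.18 CPM after morphine (SD, n = 4, edgeR adjusted P = 0.0176). At least 1 count was found in every library for all of these markers except 2 of the choroid plexus. Summed markers of the medial habenula, which borders the PVT, were at 492 to 614 CPM in the controls and at 465 to 609 CPM in the morphine libraries, a sum carried mostly by Calb1 and Nwd2. Of these 10 markers 6 had a log2 fold change above 0 and 4 below, with a median of 0.19. edgeR called 1, Lmo3, with a log2 fold change of 0.75 (edgeR adjusted P = 0.0227), and the cholinergic markers Chat and Slc5a7 had 0.97 and 0.92 (edgeR adjusted P = 0.457 and 0.236). Chat was at 2.78, 7.78, 15.9 and 2.73 CPM in morphine replicates 3, 4, 7 and 8, against 3.31 to 4.02 CPM in the controls. Slc5a7 was highest in morphine replicate 7 as well, at 13.6 CPM, against 4.83 to 7.24 CPM in the other morphine libraries. The markers below 0 were Nwd2 (-0.26), Tac2 (-0.26), Calb1 (-0.19) and Pou4f1 (-0.18). Of 8 oligodendrocyte markers 8 had a log2 fold change above 0, with a median of 0.56, and of 8 astrocyte markers 6 had, with a median of 0.46. In both lists 0 were called in edgeR or DESeq2 and 0 were under 0.05 unadjusted in edgeR, against 0.195%, 2.65% and 12.1% of all genes. The part of other cells in the level of Kctd4 was not tested.

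**Figure D5:**
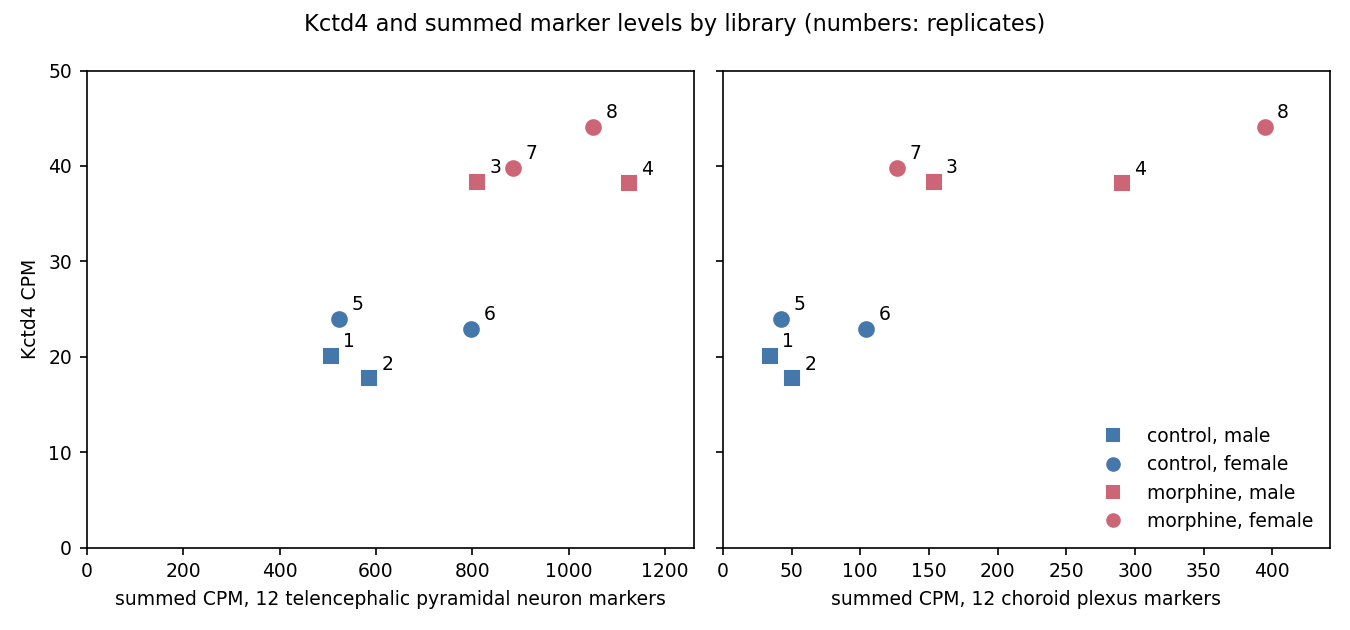
Kctd4 (CPM) against the summed CPM of 12 telencephalic pyramidal neuron markers (left) and 12 choroid plexus markers (right) in each library, control in blue, morphine in red, numbers for replicates. The 4 morphine libraries lie above the controls on both axes of both panels, from 810 summed CPM on the left and from 127 on the right.

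After subtracting the condition means, the genes most like Kctd4 over the 8 libraries were Utp14b (r = 0.976), Usp54 (0.972) and Tppp (0.964), which leaves the difference between the conditions out. Their own log2 fold changes were -0.098, -0.13 and -0.047.

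A second comparison asks whether female and male libraries differ, with condition in the model. Of the 9 members 0 passed at an adjusted P value under 0.05 in edgeR, with 0 under 0.05 unadjusted and 0 in DESeq2, against 0.00528% of all genes in edgeR and 0.111% in DESeq2. The log2 fold changes, female over male, lay between -0.14 in Kctd2 and 0.22 in Kctd4. Leaving out each library in turn gave -0.21 to -0.037 for Kctd2, the latter without morphine replicate 3, and 0.17 to 0.26 for Kctd4. In Kctd4 both female libraries were above both male libraries in each condition, at 22.9 and 24.0 against 17.8 and 20.1 CPM in the controls and at 39.8 and 44.1 against 38.2 and 38.4 CPM after morphine. Its 95% interval was from -0.012 to 0.45 (edgeR unadjusted P = 0.0608, adjusted P = 1.00), and without control replicate 5 the log2 fold change was 0.18, with 0 of the 9 members called. Kctd8 followed the same order in the controls only, with 25.3 and 25.6 CPM in females against 20.9 and 22.3 CPM in males, as did Kctd16, with 38.3 and 39.7 CPM against 26.3 and 30.8 CPM. Kctd17 had the opposite order in the controls only, with 214 and 237 CPM in females against 248 and 261 CPM in males.

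Whether the difference after morphine varied with sex was examined with an interaction term, on only 2 libraries for each sex in each condition. Of the 9 members 0 passed in edgeR, 0 had an unadjusted P value under 0.05 and 0 passed in DESeq2. Over all genes edgeR called 0% and DESeq2 called 4 genes (0.0211%), while 325 had unadjusted P values under 0.05 in edgeR. The interaction terms lay between -0.65 for Kctd16 and 0.41 for Gabbr1 on the log2 scale. The means of Kctd16 went from 28.5 to 35.7 CPM in males and from 39.0 to 31.2 CPM in females, and those of Gabbr1 from 891 to 884 CPM and from 764 to 1011 CPM. The female control mean of Gabbr1 rests on control replicate 5, at 700.4 CPM, and control replicate 6, at 829 CPM.

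The other 15 Kctd genes of the table were read beside the members. By edgeR 0 of the 15 rose or fell at an adjusted P value under 0.05 and DESeq2 called 0. Unadjusted, 3 of the 15 had a P value under 0.05 in edgeR, against 12.1% of all genes. Their median log2 fold change was -0.0053. The groups did not overlap in 3 of them, Kctd7 and Kctd15, which were lower after morphine, and Kctd6, which was higher, against 6.55% of all genes. Kctd7, linked to progressive myoclonic epilepsy, had 38.5 ± 2.69 CPM in the controls and 30.2 ± 2.99 CPM after morphine (SD, n = 4), and the log2 fold change was -0.35 (edgeR adjusted P = 0.202). Kctd15 had 21.3 ± 1.95 and 16.9 ± 0.97 CPM (SD, n = 4; log2 fold change -0.33, edgeR adjusted P = 0.236). The most abundant by CPM were Kctd13, an adaptor for RhoA degradation, and Kctd3, with log2 fold changes of 0.089 and 0.044. Kctd12b, a further auxiliary subunit that is also counted among the partners of the receptor, was low at 2.52 to 4.78 CPM, with a log2 fold change of 0.30 (edgeR adjusted P = 0.596). Kctd14 had the highest log2 fold change, 0.69, on 2 to 14 counts per library (edgeR adjusted P = 0.677).

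Of 23 partners and effectors of the GABA-B receptor, 0 rose and 0 fell in edgeR at an adjusted P value under 0.05, with 4 of the 23 under 0.05 unadjusted, against 12.1% of all genes. DESeq2 called 1 of the 23, Kcnj3, against 2.65% of all genes. The median log2 fold change was 0.0010, with 13 above 0 and 10 below. The highest were Cacna1a, a presynaptic calcium channel subunit (0.48, edgeR adjusted P = 0.241), and Kcnj6, a GIRK channel subunit (0.46, edgeR adjusted P = 0.205). The lowest were the G protein beta subunits Gnb4 (-0.34, edgeR adjusted P = 0.550) and Gnb2 (-0.29, edgeR adjusted P = 0.450). Kcnj3, the GIRK subunit that DESeq2 called, had 54.6 to 61.6 CPM in the controls and 69.4 to 77.0 CPM in the morphine libraries without overlap, a log2 fold change of 0.34 (edgeR adjusted P = 0.143).

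Among 6 genes of GABA supply and reuptake, 0 rose and 0 fell in edgeR or DESeq2, against 0.195% and 2.65% of all genes. Unadjusted, 1 of the 6 had a P value under 0.05 in edgeR, against 12.1% of all genes. The median log2 fold change was -0.071. The lowest was Gad2, which makes GABA, with 624 ± 103 CPM in the controls and 465 ± 120 CPM in the morphine libraries (SD, n = 4; log2 fold change -0.42, edgeR adjusted P = 0.381), followed by Abat, which breaks it down (-0.33, edgeR adjusted P = 0.427).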

How the data were processed

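The values the authors deposited are raw counts of reads for RefSeq transcripts in each library, with no normalization. The tool that made this table is not given in the sources used here. The methods describe Salmon on mm10 (GRCm38) with GC bias correction and tximport before DESeq2, which the submitters' processing notes also name. Transcripts of a gene can share reads, so for every gene only the transcript with most reads was kept (0 columns lacked a sample, 0 rows lacked a gene name). Counts were scaled by TMM factors to CPM and tested over all 18939 genes with edgeR 4.0.16 (R 4.3.3, glmQLFit and glmQLFTest, Benjamini-Hochberg adjustment). A gene is called at an adjusted P value under 0.05. The interval of a fold change comes from the same fit. Alternatives were DESeq2 1.42.0, limma-voom (limma 3.58.1), filterByExpr, RLE factors, a minimum of 10 counts in each library, the sum over transcripts, sex in the model and each library left out.

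Transcript lengths, positions and overlaps came from GENCODE M21 (GRCm38), where 8 of the 9 counted transcripts were found, and markers under older symbols were matched through RefSeq. The members and lists were chosen with earlier results of these data known. Named genes are the members, the 3 most like Gabbr1, Gabbr2 and Kctd4 (log2 CPM with a prior count of 2), the genes overlapping a member, called genes and, per list, the 2 highest and 2 lowest fold changes, and for other Kctd genes the 2 most abundant and the 2 with the lowest P value. Kctd6, Kcnj3 and single markers were named after their values were seen. The highest fold changes among the genes of GABA supply and reuptake are not reported here. Of the marker lists, the summed CPM of 10 midline thalamus genes was 2206 to 2763 in controls and 1659 to 2928 after morphine, that of 8 astrocyte genes 176 to 322 and 171 to 335, and that of 8 oligodendrocyte genes 124 to 1265 and 587 to 1551. The fits were run on simulated data with log2 fold changes of 1.5 in 200 genes. These are larger than those of the members, so the run does not measure power for the members. Precision for these genes is limited by the spread between 4 libraries per group more than by counting error, and PCR copies are not marked. The labels give no sequencing batch.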

Additional observations from a re-analysis of the deposited data

Results flagged for a closer look

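In 3 of the 18 groups of 4 libraries (9 genes in 2 groups each), 1 library stood far from the other 3 by Dixon's criterion, which chance meets in about 1 of 20 groups. Gabbr1 was at 1144 CPM in morphine replicate 8, against 877 to 887 CPM in the other morphine libraries. Kctd12 was at 95.3 CPM in control replicate 2, against 124 to 126 CPM in the other controls. Kctd2 was at 118 CPM in morphine replicate 3, against 87.9 to 90.1 CPM in the others.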

How the results depend on the processing

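The number of genes called between morphine and control was 37 and moved to 502 with DESeq2, 110 with sex in the model, 23 with limma-voom, 22 with counts summed over transcripts, 15 with at least 10 counts in every library and 14 with filterByExpr. It was between 0 and 77 with single libraries left out: 0 without morphine replicate 4 and 0 without morphine replicate 8 (1697 and 1664 genes at an unadjusted P value under 0.05), 77 without control replicate 6 and without morphine replicate 3, and 1, 20 and 11 without control replicates 1 and 5 and morphine replicate 7. In every setting run, 0 of the 8 members other than Kctd4 were called, and 0 of the 9 for sex or the interaction. Of the 23 partners and effectors, DESeq2 called 1. The ratio of Gabbr1 to Gabbr2 per length was 3.60 and became 3.93 with the mean length of coding transcripts, and 3.60 with the longest one, a length chosen after seeing the data. Of the 56 fold changes of these 8 members between the conditions under other settings, 56 kept their direction and side of the threshold. That of Kctd4, which was not tested, kept its direction in 7 of 7 settings. Kctd4 was chosen for this rise in the same libraries, so this is a description only. With libraries left out, the direction changed in 5 of 64, for Kctd16 (-0.17 to 0.11) and Kctd2 (-0.14 to 0.0096). For sex it changed in 9 of 72, for Gabbr1 (-0.14 to 0.10), Gabbr2 (-0.13 to 0.15), Kctd12 (-0.044 to 0.16) and Kctd17 (-0.17 to 0.0033). The causes were not tested. No paired analysis was possible because the groups share no replicate numbers.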
